A study of Rattus norvegicus with 6 samples.

Results

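The transcripts described here are those that differed most among 3 samples of cystic rat kidney. They are the 300 probe sets with the highest standard deviation (SD) of log2 signal among the 3 arrays of heterozygous Han:SPRD Cy/+ kidney. They represent 277 genes, out of 12193 probe sets and 9529 genes that could be chosen, and 31099 probe sets on the array. A probe set could be chosen if it carried a single gene symbol, was no control, and had a mean log2 signal of 7 or more, which is a linear signal of 128. The same arrays chose the transcripts and are described below, so no test is given. No size below is evidence that these genes vary more than others. A member below 128 on an array passed the filter through the others, and its order is not read as a result.

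The series holds 3 Cy/+ and 3 wild-type +/+ samples of kidney tissue from male rats, 1 array each. Cy/+ rats carry 1 mutant copy of Anks6, which codes for a protein of the primary cilium, and develop slowly growing cysts. The labels give the age as 10 weeks and the methods as 5 weeks, and the labels name no treatment for either group. No source used here states that each sample came from a separate rat, what part of the kidney was taken, or at what hour, so the spread may be technical. The numbers 1 to 3 only name the arrays. The +/+ arrays serve here as a background for the spread between arrays, and their levels are not compared with those of Cy/+.

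The kidney is built of segments that express very different genes. The proximal tubule reabsorbs most filtered solutes and is rich in transporters, peptidases and metabolic enzymes, the thick ascending limb dilutes the tubular fluid, and the collecting duct adjusts water, urea and acid. Urothelium lines the renal pelvis, and fibroblasts between the tubules lay down matrix. In bulk tissue such as this, fewer cells of a type cannot be told apart from less RNA per cell.

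Pairs of Cy/+ arrays correlated at 0.982 (Cy/+ 1 and 2), 0.987 (Cy/+ 1 and 3) and 0.990 (Cy/+ 2 and 3) over 31042 probe sets, a description across probe sets that share each array. The median signal of all probe sets was between 125 and 128 on the 3 arrays. The 18 probe sets of the hybridization controls, which carry no rat RNA, were dimmest on Cy/+ 1, with medians of 1479, 2145 and 1934 on Cy/+ 1, 2 and 3. The poly-A controls (24 probe sets), which are added before labeling, had medians of 327, 549 and 525 in the same order. The ratio of 3' to 5' signal, which reflects RNA integrity and labeling, was 3.09, 3.05 and 3.53 for beta-actin, 1.92, 1.91 and 1.74 for Gapdh, and 4.51, 4.44 and 4.42 for hexokinase. Among +/+ arrays the same ratios were 1.504 to 1.516, 1.15 to 1.22 and 3.79 to 3.89, with hybridization control medians of 727 to 1107 and poly-A control medians of 159 to 166. The part that labeling or RNA quality had in the spread was not tested.

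Scaling each array to its hybridization controls was tried as an alternative. It raises every gene of Cy/+ 1 relative to Cy/+ 2 by 0.54 and relative to Cy/+ 3 by 0.39 on the log2 scale. Of all 9529 genes, 8250 were then highest in Cy/+ 1, against 3921 as deposited, and 7053 lowest in Cy/+ 2, against 3339. A gene group that takes or keeps this order after the scaling follows the shift of all genes. Nothing is read from its counts after the scaling, and its counts as deposited are given as a description. Where the scaling changes the array named for a group, this is said beside it.

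Selection took 2.46% of the eligible probe sets. The SD of the 300 ran from 0.749 to 3.48 with a median of 0.920, and the median over all eligible probe sets was 0.161. On the linear scale, the highest array exceeded the lowest by 2.48-fold to 91.3-fold, with a median of 3.40-fold beside 1.24-fold for all eligible probe sets. The last members were Ccn2, LOC106182250 and Sparc, with SDs of 0.752, 0.751 and 0.749. The first probe sets left out were Esrp1, Ankh and Aspa, with SDs of 0.749, 0.748 and 0.748. Members and near misses thus form a continuous series. The threshold has no natural gap, as the plot of spread against signal shows.

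**Figure D1:**
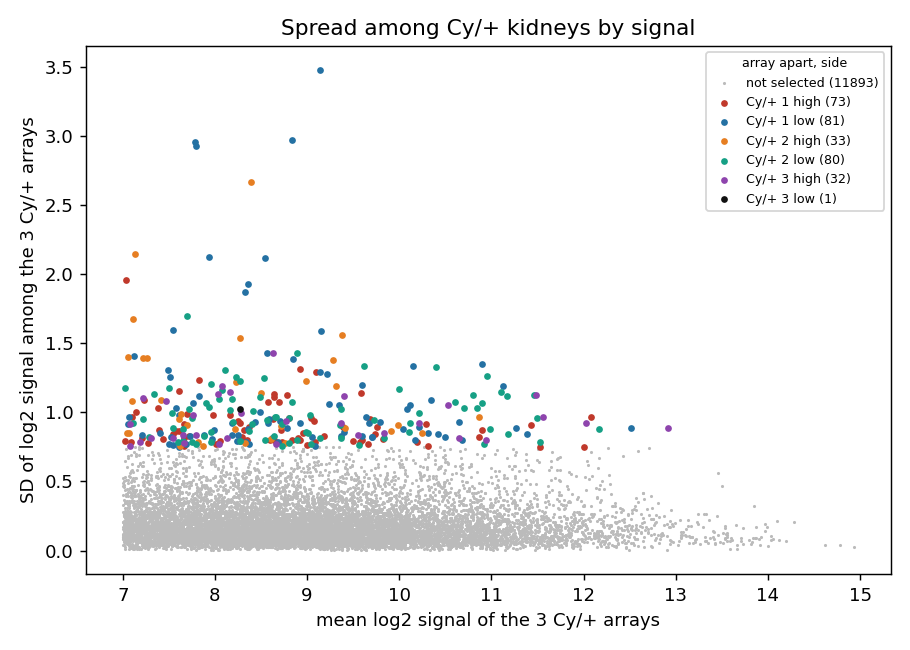
SD of log2 signal among the 3 Cy/+ arrays (vertical) against their mean log2 signal (horizontal), 1 point per probe set, with 300 selected probe sets coloured by the array that lay apart and its side and 11893 others in grey. The highest SDs, from 2.67 to 3.48, belong to Krt15, Sprr1a and uroplakins, and selected probe sets have mean log2 signals from 7.02 to 12.92.

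The +/+ arrays, which also had lower 3' to 5' ratios and dimmer poly-A controls, give the background. The median SD of the members among the 3 +/+ arrays was 0.153, beside 0.0838 for all eligible probe sets. The highest +/+ array exceeded the lowest by a median of 1.23-fold. The filter used the Cy/+ signals alone, and some members, such as Upk1a and Mmp7, were below 128 on every +/+ array. A small +/+ spread of such members may reflect low signal. In none of the 300 was the +/+ SD above the probe set's own Cy/+ SD, a count that the choice by a high Cy/+ SD favours. Among all 12193 eligible probe sets, 2682 had the higher SD in +/+. Only Slc14a2, the urea transporter of the inner medullary collecting duct, had a +/+ SD of at least the lowest Cy/+ SD of the members, at 1.25. Its +/+ signals were 81.0, 78.9 and 359 on +/+ 1, 2 and 3, so that +/+ 3 stood alone.

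**Figure D2:**
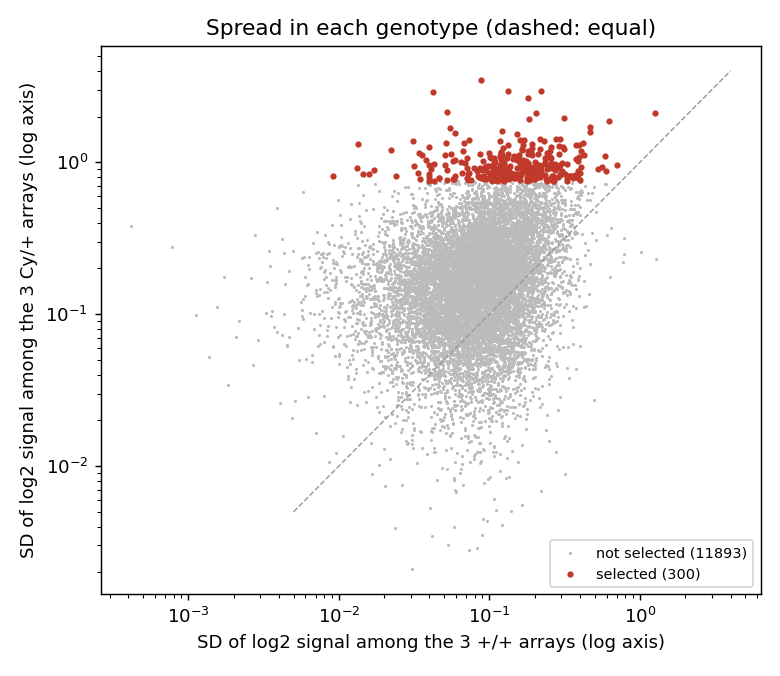
SD of log2 signal among the 3 Cy/+ arrays (vertical) against the SD of the same probe set among the 3 +/+ arrays (horizontal), both on log axes, with the 300 selected probe sets in red and 11893 others in grey. All 300 lie above the dashed line of equal SD, and the red point farthest right is Slc14a2.

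To describe which arrays differed, each probe set was given the array that lay beyond the larger of the 2 gaps between its 3 ordered signals, and the side, high or low. That gap was more than 0.75 of the log2 span in 123 of the 300 (41.0%), beside 46.7% of eligible probe sets. In the other members the 2 gaps were less unequal, and the array apart is not a lone outlier beside 2 like arrays. Cy/+ 1 lay apart in 154 of the 300 (51.3%), Cy/+ 2 in 113 (37.7%) and Cy/+ 3 in 33 (11%). Over all eligible probe sets these shares were 47.0%, 28.9% and 24.1%. Cy/+ 1 was apart and high in 73 members, beside 25.4% of eligible probe sets, and apart and low in 81, beside 21.6%. Cy/+ 2 was apart and high in 33, beside 13.8%, and apart and low in 80, beside 15.1%. Cy/+ 3 was apart and high in 32, beside 13% of eligible probe sets. Cy/+ 3 was apart and low in 1 member, beside 11.1%. That member was Aoc1, the diamine oxidase that breaks down histamine, with signals of 424, 507 and 136.

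With 3 centred arrays there are 2 components, and the first held 74.3% of the squared deviation of the members, with weights of 0.72 for Cy/+ 1, -0.69 for Cy/+ 2 and -0.03 for Cy/+ 3. Over all eligible probe sets it held 70.1%, with weights of 0.78, -0.59 and -0.19. Cy/+ 1 and Cy/+ 2 differed by a median of 1.56 on the log2 scale over the members, in either direction, and Cy/+ 2 and 3 by 0.97. The order Cy/+ 2 above 3 above 1 was found in 92 members (30.7%, beside 20.9% of eligible probe sets). Cy/+ 1 above 3 above 2 was found in 77 (25.7%, beside 22.7%) and Cy/+ 3 above 1 above 2 in 76 (25.3%, beside 12.6%). Cy/+ 1 above 2 above 3 followed with 27 (9%, beside 17.8%), Cy/+ 3 above 2 above 1 with 26 (8.67%, beside 16.3%) and Cy/+ 2 above 1 above 3 with 2 (0.67%, beside 9.84%).

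**Figure D3:**
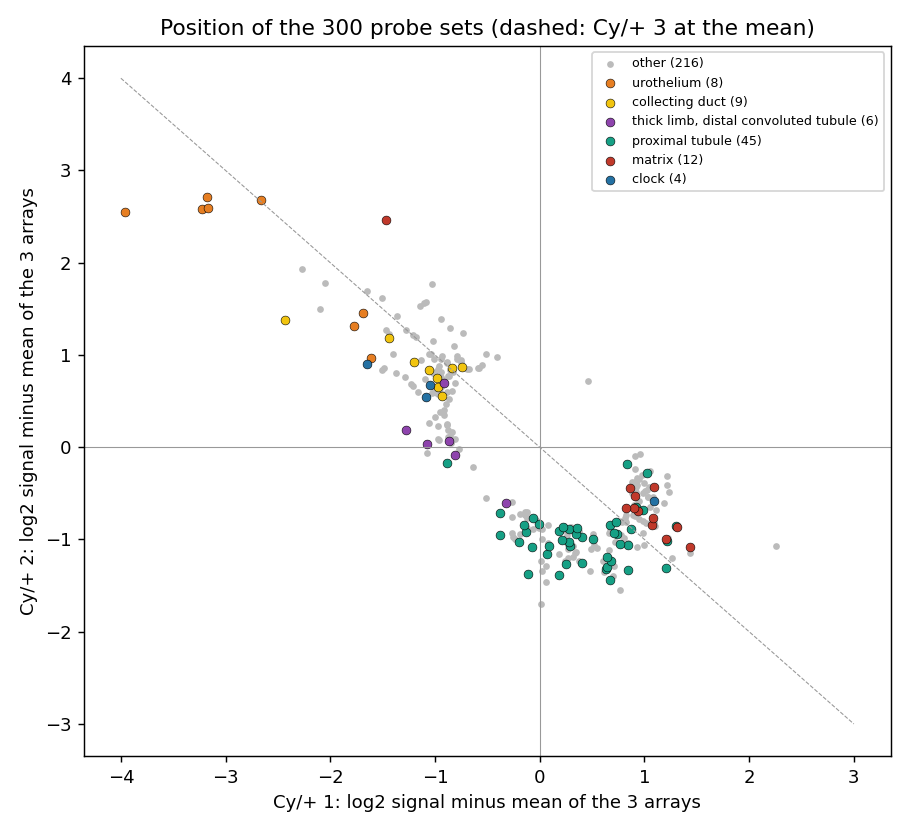
Position of the 300 selected probe sets, with log2 signal minus the mean of the 3 Cy/+ arrays for Cy/+ 1 (horizontal) and Cy/+ 2 (vertical), coloured by gene group. On the dashed line Cy/+ 3 equals the mean. Urothelial and collecting duct genes lie at the upper left (low in Cy/+ 1, high in Cy/+ 2), proximal tubule genes along the bottom (low in Cy/+ 2) and matrix genes other than Mmp7 at the lower right (high in Cy/+ 1).

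Other probe sets of the same genes give another reading of the order. Of 52 eligible probe sets of 38 member genes that were not themselves selected, 33 (63.5%) had both the same highest and the same lowest array as the member. Among 2029 other genes with at least 2 eligible probe sets, the brightest 2 shared both in 712 (35.1%). These readings come from the same RNA and the same arrays, so they bear on the probes and not on the kidneys. In 15 of the 20 genes with several selected probe sets, all of them had the same highest and lowest array.

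Genes of the urothelium had the widest spread. Urothelium is a layered lining whose umbrella cells carry plaques of uroplakins and whose basal cells hold keratins 5, 14 and 15. All 10 eligible genes of the list were highest in Cy/+ 2 and lowest in Cy/+ 1, and 8 of the 10 were members, beside 277 of 9529 genes (2.91%). In 8 of the 10 the signal on Cy/+ 1 was below the 128 of the filter, so that they passed it through the other arrays, and neither the order nor the share of members is read as a result. Their summed signal was 1513, 15157 and 5589 on Cy/+ 1, 2 and 3. After scaling to the hybridization controls 9 of the 10 were highest in Cy/+ 2 and 8 lowest in Cy/+ 1. The genes passed the filter as before, so nothing is read from these counts either.

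Krt15, a basal keratin, had signals of 36.4, 3324 and 1497 on Cy/+ 1, 2 and 3, a 91.3-fold span as deposited. The uroplakin genes Upk1a (23.7, 1319 and 345) and Upk1b (24.7, 1339 and 328) took the same order across the arrays. Upk3a, which pairs with Upk1b in the plaque, read 53.0, 2139 and 332. All of these were below the median signal of the array in Cy/+ 1, where detection was not assessed, so their spans there have no exact size. They differed by a further 2.22-fold to 6.45-fold between Cy/+ 2 and Cy/+ 3. Sprr1a, a cross-linked envelope protein of layered epithelia, read 50.8, 2994 and 634. The basal keratins Krt14 (54.7, 467 and 257) and Krt5 (45.4, 272 and 218) had smaller spans. Psca, a surface protein anchored by a lipid, read 177, 1565 and 669. Cy/+ 2 was high and Cy/+ 1 low in each, and Cy/+ 3 was between them. Among +/+ arrays the 8 genes spanned 1.05-fold (Upk1b) to 1.78-fold (Psca). Apart from Psca (101, 173 and 180 on +/+ 1, 2 and 3), they were below 128 on every +/+ array. Upk1a, for example, read 23.4, 22.6 and 26.9. Signals this low can hide a spread, so these +/+ spans are not read as a background.

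Urothelial genes of the list that the filter on mean signal left out are also given. Upk2 read 42.6, 320 and 84.4, and Tp63, the transcription factor of basal epithelial cells, read 26.4, 303 and 67.5. Krt13 stayed between 27.1 and 32.9. Sprr1b (64.7, 70.4 and 72.2) was highest in Cy/+ 3, and Gsdma (26.2, 26.4 and 26.2) was about level. Upk2 and Tp63 followed the order of the members. Krt13, Sprr1b and Gsdma did not reach the filter on any array.

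Several other epithelial members are given here, and some are among the 10 of highest SD. Mmp7, matrilysin, a metalloprotease made by epithelia, read 50.6, 772 and 70.3, and only Cy/+ 2 was high. Anxa8, an annexin of layered epithelia, read 50.5, 932 and 309. Wnt4, a secreted signal used in nephron formation, read 79.5, 1131 and 397. S100a14, a calcium-binding protein of epithelia, read 44.2, 448 and 134, and its other selected probe set read 59.5, 411 and 147. Fxyd3, a regulator of the sodium pump, read 234, 2028 and 614. In all 5 genes Cy/+ 2 was highest and Cy/+ 1 lowest. Mgst2, a microsomal glutathione transferase, read 152, 1048 and 184, again with Cy/+ 2 apart.

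Most genes of the collecting duct list were highest in Cy/+ 2 and lowest in Cy/+ 1 as deposited. Of its 21 eligible genes 18 were highest in Cy/+ 2, beside 31.3% of all genes, and 19 lowest in Cy/+ 1, beside 36.2%. Of the 21, 8 (38.1%) were members, beside 2.91% of all genes. Its median SD was 0.608 in Cy/+ and 0.100 in +/+, beside 0.160 and 0.081 for all genes. Its summed signal was 20918, 45770 and 35236. After scaling to the hybridization controls, 16 of the 21 were highest in Cy/+ 2 and 16 lowest in Cy/+ 1, and the 300 then chosen held 2 genes of this list.

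Slc14a2 read 69.2, 973 and 777. It was below the filter on Cy/+ 1, so its order is not read as a result. The water channels Aqp2 (2978, 9908 and 6850) and Aqp3 (419, 2590 and 1362), of the apical and basolateral membrane of principal cells, were both lowest in Cy/+ 1. Aqp4, the other basolateral water channel, read 383, 1428 and 925. These 3 shared the order Cy/+ 2, 3, 1. Fxyd4, a subunit that tunes the sodium pump of the collecting duct, read 564, 2458 and 1586. Gata3, a transcription factor of the duct, read 680, 2209 and 1195, with Cy/+ 2 apart and high. Genes of intercalated cells, which secrete acid or base, took the same order. Slc4a1, the anion exchanger of acid-secreting cells, read 344, 1058 and 844, and Atp6v1b1, a proton pump subunit, read 206, 579 and 511. Among +/+ arrays Aqp4 spanned 2.67-fold and Atp6v1b1 1.01-fold, so the background differed between these genes.

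Slc14a1, the urea transporter of vessels and of urothelium, was in no list and was chosen after its values were seen. It read 75.0, 904 and 485, and it spanned 2.25-fold among +/+ arrays. It too was below the filter on Cy/+ 1, and its order is not read as a result. The list of medullary osmolyte and papillary genes held 10 eligible genes, of which Slc14a2 alone was a member, and its genes were highest in Cy/+ 1 in 2, in Cy/+ 2 in 4 and in Cy/+ 3 in 4, or in 5, 2 and 3 after scaling to the hybridization controls. Nfat5, the regulator of osmolyte genes, read 7655, 8355 and 8009, and Akr1b1, which makes sorbitol, read 1640, 1930 and 1401. Nfat5 and Akr1b1 were chosen after their values were seen. The list's median SD was 0.378, beside 0.160 for all genes.

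Thick limb and distal convoluted tubule genes had a different order. Of 18 eligible genes 13 were highest in Cy/+ 3, beside 27.6% of all genes, and 13 lowest in Cy/+ 1, beside 36.2%. Of the 18, 5 (27.8%) were members. After scaling to the hybridization controls 13 were highest in Cy/+ 3, while 6 were lowest in Cy/+ 1 and 10 in Cy/+ 2. Ppp1r1a, a phosphatase inhibitor, read 923, 2538 and 4739. Kcnj1, the potassium channel ROMK, read 522, 866 and 1694. Cldn10, a tight junction protein that passes cations, read 1465, 2804 and 4679. These 3 were lowest in Cy/+ 1 and highest in Cy/+ 3. Egf, whose product is made in these segments, read 1280, 1054 and 3044, with Cy/+ 3 apart. Bsnd, the chloride channel subunit barttin, read 350, 1068 and 770, an order like that of the collecting duct, where it is also expressed.

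**Figure D4:**
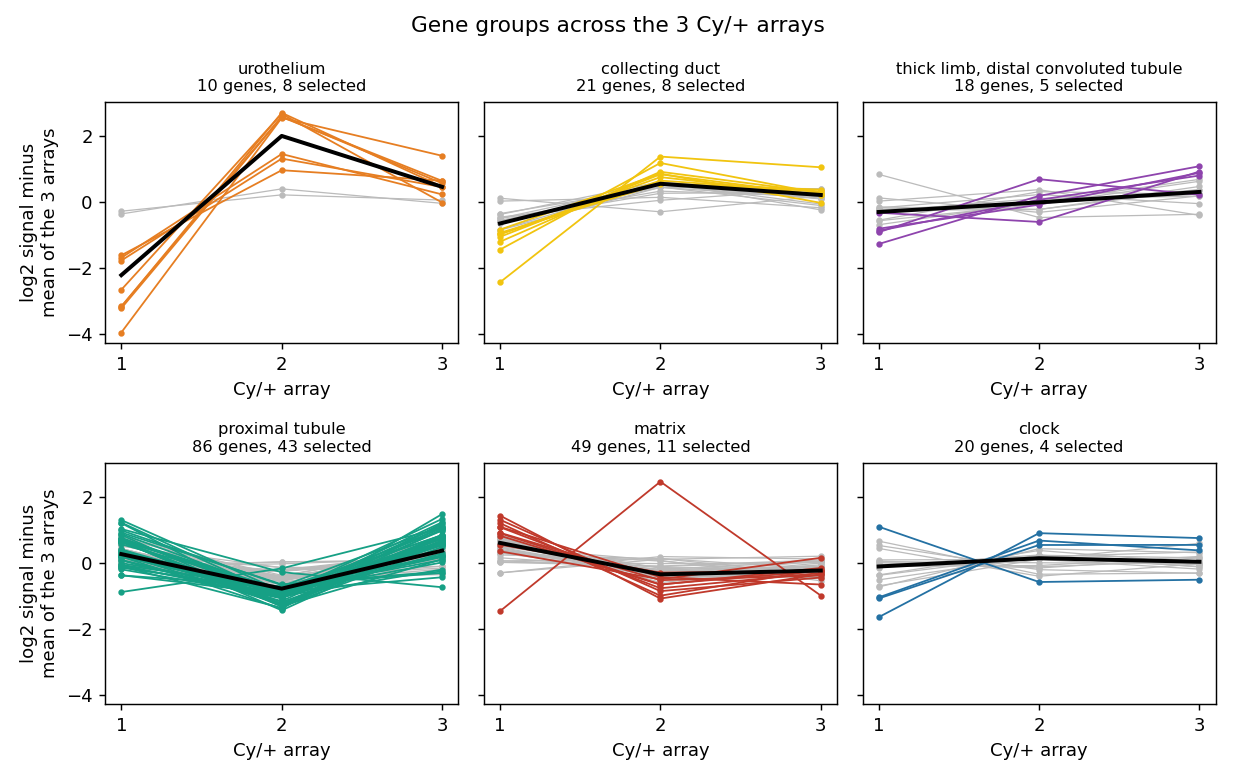
Log2 signal minus the mean of the 3 Cy/+ arrays (vertical) for each Cy/+ array (horizontal) in 6 gene groups. Each line is 1 eligible gene, coloured where the gene is among the 300 and grey where not, and the black line is the median. The medians peak in Cy/+ 2 for urothelium and collecting duct, in Cy/+ 3 for thick limb and distal convoluted tubule, and in Cy/+ 1 for matrix, and they dip in Cy/+ 2 for proximal tubule.

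The proximal tubule supplied the largest block of members. Both of its lists, of transporters and of enzymes and brush border proteins, had 50% of their eligible genes among the members, 20 of 40 and 23 of 46. Of the 43 member genes 41 were lowest in Cy/+ 2. Over all 86 eligible genes 80 were lowest in Cy/+ 2, beside 35.0% of all genes, and 0 were highest there. After scaling to the hybridization controls 37 of the 40 transporters and 46 of the 46 genes of the enzyme list were lowest there. The scaling moves all genes that way, so nothing is read from the scaled counts. The summed signal of the transporter list was 62405, 32376 and 64152, and that of the enzyme list 77188, 34107 and 83088. As deposited, Cy/+ 2 thus held less than the others for both.

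The choice of the highest array split the list, 16 of the 43 being highest in Cy/+ 1 and 27 in Cy/+ 3. That split moved with the scaling: over all 40 transporters 18 were highest in Cy/+ 1 and 22 in Cy/+ 3 as deposited, and 25 and 15 after scaling to the hybridization controls. For the 46 enzymes and brush border genes the counts went from 17 and 29 to 29 and 17.

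Some genes were about level in Cy/+ 1 and 3. Slc34a1, the main phosphate transporter of the brush border, read 3416, 880 and 3532. Miox, which breaks down inositol, read 4383, 1146 and 4427. Fbp1, a gluconeogenic phosphatase, read 2492, 660 and 2293, and Acsm2, a fatty acid ligase, read 2871, 806 and 2707. In these 4 genes Cy/+ 2 alone was low, and they spanned 1.05-fold to 1.10-fold among +/+ arrays. The urate and anion transporter Slc17a3 (587, 136 and 633) and the dicarboxylate transporter Slc13a3 (1832, 406 and 1427) were alike in this.

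Other genes were high in Cy/+ 1. Slc7a9, the light chain of the cystine transporter, read 1890, 424 and 567. Slc22a8, an organic anion transporter of the basolateral membrane, read 930, 198 and 347. Pck1, the rate-limiting enzyme of gluconeogenesis, read 4560, 797 and 2133. Cy/+ 1 was highest and Cy/+ 2 lowest in each. The basolateral glucose transporter Slc2a2 (3781, 1198 and 1546) and Gatm, the first enzyme of creatine synthesis (3531, 1188 and 1555), were of this kind. Slc4a4, the sodium bicarbonate exit carrier, read 2558, 1031 and 751 and was lowest in Cy/+ 3. Slc2a2 and Slc4a4 are known chiefly from the convoluted part of the tubule, but no pattern by segment is read here or below. The choice between Cy/+ 1 and 3 moved with the scaling. Slc9a3 (118, 194 and 453) was the 1 transporter member lowest in Cy/+ 1. Slc22a8, Slc2a2, Gatm, Slc4a4 and Slc9a3 lie outside the rule for named genes and were chosen after their values were seen.

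Another set was high in Cy/+ 3. Slc7a12, an amino acid transporter, read 368, 153 and 1103. Slco1a6, an organic anion transporter, read 208, 139 and 678. The meprin subunits Mep1a (644, 320 and 1502) and Mep1b (249, 140 and 671), which are brush border proteases, matched each other closely. In these 4 genes Cy/+ 3 was apart and high and Cy/+ 2 lowest. Slc22a12, the urate transporter of the brush border, read 315, 106 and 637, and Slco1a1, another organic anion transporter, read 320, 112 and 543. Akr7a3, an aldehyde reductase, read 1871, 796 and 3786, and Glyat, which joins glycine to acids, read 474, 150 and 649. Slc7a13, an amino acid transporter known from the straight part of the tubule, read 2309, 1835 and 6446, and it too was chosen after its values were seen.

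Members outside the proximal tubule lists that were lowest in Cy/+ 2 included carriers and enzymes. Rbp4, the plasma carrier of retinol, read 208, 63.7 and 669, and Rgn, a calcium-binding lactonase, read 495, 172 and 1245. AKR1C3l1, an aldo-keto reductase gene, read 1338 on both Cy/+ 1 and Cy/+ 3 and 269 on Cy/+ 2. Dhrs7l1, of the short-chain dehydrogenases, read 1369, 534 and 3373. By the larger gap Cy/+ 2 was apart and low in all 4. In Rbp4, Rgn and Dhrs7l1 that gap was only 0.503, 0.533 and 0.511 of the log2 span. Their signals were thus about evenly spaced, with Cy/+ 3 high as well as Cy/+ 2 low. Rbp4 was below 128 on Cy/+ 2, so its order is not read as a result. For Slco1a3, an organic anion transporter with 2 selected probe sets, the signals were 310, 132 and 719 on one and 223, 132 and 614 on the other, the same order with Cy/+ 2 apart on the first and Cy/+ 3 on the second. Tff3, a trefoil peptide of mucous surfaces, read 2401, 1454 and 6700, with Cy/+ 3 high.

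Detoxification genes were divided. Of 26 eligible genes of cytochrome P450 and drug conjugation, 10 (38.5%) were members, 15 were lowest in Cy/+ 2, beside 35.0% of all genes, and 5 were highest there. Cyp2c23, which makes epoxides of arachidonic acid, read 3771, 944 and 3439. The sulfotransferases Sult1c2 (403, 94.5 and 402) and Sult1b1 (436, 155 and 591) and the acetyltransferase Nat8 (517, 206 and 897) were also lowest there. Cyp2d2 (195, 90.1 and 358) and Fmo4 (401, 239 and 871) were highest in Cy/+ 3. Cyp2s1 (160, 542 and 528) was low in Cy/+ 1, and Cyp1b1 (375, 155 and 119) was high in it. The list therefore did not move as a whole.

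Fatty acid oxidation had 5 members among 42 eligible genes (11.9%). Cyp4a1, a fatty acid omega-hydroxylase, read 547, 98.7 and 219, and Vnn1, pantetheinase, read 617, 172 and 268. Cyp4a8 (4045, 1336 and 4412) and Cyp4a3 (1572, 556 and 1534) were low in Cy/+ 2 alone. Cpt1b, a carnitine acyltransferase, read 170, 227 and 480, and differed from the others by being lowest in Cy/+ 1. Of the glutathione list, 4 of 38 genes (10.5%) were members. Gclc, the rate-limiting enzyme of glutathione synthesis, read 3977, 2251 and 8069, with Cy/+ 3 high, and Gsta3, a glutathione transferase, read 176, 367 and 634.

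The promoters of proximal tubule members are shown because HNF1 factors are known regulators of many of these genes. Whether HNF1 had a part in the spread was not tested. Sequences are the 250 bases before the transcription start, from RefSeq on GRCr8, and 38 of the 43 genes had an entry. The letters GTTAAT, the core that HNF1 proteins bind, occurred on either strand in 12 of the 38 (31.6%). They occurred in 15 of 184 other member genes (8.15%) and in 1775 of 27457 promoters (6.46%). Among the genes of the same lists that were eligible but not members they occurred in 3 of 40 (7.5%). A match of these letters is a description and not a bound site. The 6 promoters below carry the core, in capitals and on either strand (ATTAAC on the opposite one), and cover each order of the arrays: level in Cy/+ 1 and 3, high in Cy/+ 1, and high in Cy/+ 3.
Slc34a1, chr17:9238984-9239233, minus strand: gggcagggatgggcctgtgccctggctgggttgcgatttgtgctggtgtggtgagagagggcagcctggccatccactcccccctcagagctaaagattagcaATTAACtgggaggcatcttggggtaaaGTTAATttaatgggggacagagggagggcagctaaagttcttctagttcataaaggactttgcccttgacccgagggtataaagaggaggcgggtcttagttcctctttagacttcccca
Miox, chr7:122284410-122284659, plus strand: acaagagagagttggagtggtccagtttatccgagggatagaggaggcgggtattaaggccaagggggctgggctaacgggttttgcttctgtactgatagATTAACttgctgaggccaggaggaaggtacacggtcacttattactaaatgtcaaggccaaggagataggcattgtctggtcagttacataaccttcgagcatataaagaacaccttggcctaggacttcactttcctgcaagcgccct
Slc22a8, chr1:214927034-214927283, plus strand: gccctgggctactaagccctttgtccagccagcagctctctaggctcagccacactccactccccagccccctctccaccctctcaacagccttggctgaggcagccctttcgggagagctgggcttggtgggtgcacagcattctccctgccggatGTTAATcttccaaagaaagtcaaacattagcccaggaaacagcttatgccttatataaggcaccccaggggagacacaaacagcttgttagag
Pck1, chr3:182348322-182348571, plus strand: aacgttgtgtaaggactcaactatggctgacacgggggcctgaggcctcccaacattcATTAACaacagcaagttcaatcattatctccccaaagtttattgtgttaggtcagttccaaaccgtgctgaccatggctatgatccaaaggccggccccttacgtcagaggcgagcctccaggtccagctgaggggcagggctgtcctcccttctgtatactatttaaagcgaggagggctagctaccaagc
Mep1b, chr18:12640791-12641040, plus strand: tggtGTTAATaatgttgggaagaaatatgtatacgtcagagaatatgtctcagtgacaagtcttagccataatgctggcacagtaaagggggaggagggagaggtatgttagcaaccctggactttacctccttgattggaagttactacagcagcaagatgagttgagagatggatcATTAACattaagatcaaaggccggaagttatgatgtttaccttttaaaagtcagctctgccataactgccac
Slc7a12, chr2:88868104-88868353, minus strand: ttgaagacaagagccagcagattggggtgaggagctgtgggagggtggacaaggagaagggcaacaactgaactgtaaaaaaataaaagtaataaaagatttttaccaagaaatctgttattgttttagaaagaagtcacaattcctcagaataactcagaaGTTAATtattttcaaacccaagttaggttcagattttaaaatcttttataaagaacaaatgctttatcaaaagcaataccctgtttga

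The core lies 147 and 120 bases before the start in Slc34a1, 149 in Miox, 93 in Slc22a8, 192 in Pck1, 246 and 72 in Mep1b and 88 in Slc7a12. The 6 were picked to carry it, so nothing is read from its presence across the orders. HNF4, another factor of proximal tubule, was searched as CAAAGTCCA, which occurred in 0 of the 38, in 4 of the 40 eligible genes of these lists that were not members, and in 0.331% of all promoters. The letters CACGTG and TTANNTAA, the E-box and D-box of clock control, each occurred in 4 of the 38 (10.5%). GTTAAT occurred in 1 of 7 collecting duct members (14.3%), in 0 of 5 urothelial and 0 of 8 matrix members, and in 2 of 16 eligible clock genes (12.5%). The motifs were chosen after the signals were seen.

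Matrix genes were high in Cy/+ 1 as deposited. Fibroblasts and related stromal cells secrete collagens, proteoglycans and the enzymes that cross-link them. Of 49 eligible genes 44 were highest in Cy/+ 1, beside 41.1% of all genes, and 34 lowest in Cy/+ 2, beside 35.0%. Of the 49, 11 (22.4%) were members. After scaling to the hybridization controls 46 were highest in Cy/+ 1 and 42 lowest in Cy/+ 2. That is the order of all genes after the scaling, so nothing is read from the scaled counts. The summed signal as deposited was 143932, 83445 and 88554.

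Col8a1, a short-chain collagen, read 1472, 257 and 429. Col14a1, which coats collagen fibrils, read 484, 108 and 144, and Tnc, tenascin C, read 915, 199 and 345. Cy/+ 1 was apart and high in each. The cross-linking enzyme Lox (532, 141 and 216) and the proteoglycans Dcn (9185, 2541 and 3498) and Ogn (1754, 608 and 521) were of the same form. Fbn1, fibrillin 1, read 1687, 576 and 766. Sparc, the last member, read 5392, 2177 and 2209. The exception is Mmp7, given with the epithelial genes above, which was highest in Cy/+ 2. Among +/+ arrays these genes spanned 1.07-fold (Mmp7) to 1.56-fold (Lox). Mmp7 (28.6, 30.2 and 30.6), Col8a1 (98.7, 84.1 and 98.7) and Col14a1 (66.7, 56.9 and 59.1) were below 128 on every +/+ array. Their +/+ spans are not read as a background.

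Other members of highest spread with Cy/+ 1 high were Olr1, Spink1l and Serpina3n. Olr1, a scavenger receptor for oxidised lipoprotein, read 625, 62.4 and 57.4. Spink1l read 1316, 220 and 397. Serpina3n, an acute phase protease inhibitor, read 1032, 222 and 372. Only Cy/+ 1 was high in each. Olr1 was below the 128 of the filter on both other arrays and passed it through Cy/+ 1. The order of Olr1 is therefore not read as a result. The acute phase, complement and coagulation list had 4 members among 21 eligible genes (19.0%). Fga, a fibrinogen chain, read 546, 135 and 320, Thbd, thrombomodulin, read 502, 205 and 185, and F5, coagulation factor V, read 789, 1569 and 2453, in the opposite direction.

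Markers of some other stromal and immune cells were also highest in Cy/+ 1, though not lowest in the same array as matrix genes. Their part in the matrix result was not tested. Over all genes 41.1% were highest in Cy/+ 1, 31.3% highest in Cy/+ 2 and 28.8% lowest in Cy/+ 3. The smooth muscle, pericyte and renin cell list had 9 of 12 genes highest in Cy/+ 1 and 7 lowest in Cy/+ 3 (5 after scaling to the hybridization controls, with 7 then lowest in Cy/+ 2), with summed signals of 20324, 13150 and 12546. The endothelial list had 12 of 17 highest in Cy/+ 1 and 11 lowest in Cy/+ 3, with sums of 16743, 13308 and 13826. The macrophage and dendritic cell list had 28 of 33 highest in Cy/+ 1 and 29 lowest in Cy/+ 3, with sums of 49190, 39363 and 33097. After scaling to the hybridization controls 22 of its genes were lowest in Cy/+ 3, beside 2015 of all 9529 genes. None of these 62 genes was a member. Their median SDs were 0.390, 0.287 and 0.322, above the 0.160 of all genes. T and NK cell genes took another order, 10 of 14 being highest in Cy/+ 2 and 12 lowest in Cy/+ 3 as deposited. After scaling to the hybridization controls 12 were highest in Cy/+ 1 and 12 lowest in Cy/+ 3.

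Podocyte genes gave 2 members of 7 eligible (28.6%), beside 2.91% of all genes. Tcf21, also a transcription factor of stromal cells, read 841, 322 and 276. Ptpro, a podocyte phosphatase, read 290, 114 and 114. Both were high in Cy/+ 1. The defining markers Nphs1 (101, 86.8 and 63.4) and Wt1 (119, 112 and 65.8) were below the filter and were lowest in Cy/+ 3. The adipocyte list gave 3 members of 8 eligible (37.5%), Pck1, Car3 (3326, 801 and 1742) and Aqp7 (1139, 331 and 741), which kidney tubule also expresses. Pck1 is also counted with the proximal tubule. Of the 8, 6 were highest in Cy/+ 1, beside 41.1% of all genes. Below the filter, Cd36 (177, 76.4 and 66.8) was highest in Cy/+ 1, Adipoq (91.4, 126 and 125) was lowest there, and Plin1 (25.9, 26.3 and 26.2) and Lep (34.9, 31.8 and 31.7) stayed low on every array.

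The circadian clock had 4 members of 20 eligible genes (20.0%). The clock runs in kidney cells as a daily loop in which Bmal1 and its partners switch on their own repressors, and outputs such as Dbp follow it with large daily swings. Dbp read 121, 705 and 636. Nr1d1, the repressor REV-ERB alpha, read 197, 606 and 607, and Per3 read 235, 775 and 630. Nfil3, which opposes Dbp on the same DNA sites, read 846, 264 and 277. Cy/+ 1 lay apart in all 4, low for Dbp, Nr1d1 and Per3 and high for Nfil3, while Cy/+ 2 and 3 were within 1.23-fold of each other. Dbp was just below the filter on Cy/+ 1, so its order is not read as a result.

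Over the 20 eligible clock genes the lowest array was Cy/+ 1 in 10, Cy/+ 2 in 5 and Cy/+ 3 in 5. Of all genes, 36.2% were lowest in Cy/+ 1. The highest array was Cy/+ 1 in 5, Cy/+ 2 in 9 and Cy/+ 3 in 6. After scaling to the hybridization controls the lowest counts were 7, 8 and 5, and 12 were highest in Cy/+ 1. Bmal1, below the filter, read 221, 91.3 and 85.8. Clock genes short of the threshold, chosen after their values were seen, extended the pattern in part. Nr1d2 (884, 1975 and 1815), Usp2 (138, 243 and 339) and Hlf (349, 568 and 628) were lowest in Cy/+ 1. Cry1 (424, 211 and 217) and Npas2 (187, 112 and 104) were highest in it. Per1 (374, 476 and 370), Per2 (489, 612 and 527) and Clock (625, 611 and 596) had small spans. Within +/+ the widest clock spans were 2.11-fold for Nr1d1 and 1.72-fold for Cry1, with +/+ 2 lowest in the first and highest in the second. Neither the E-box CACGTG nor the D-box TTANNTAA was found in the 250 bases before the start of the 4 members, while the E-box occurred in 3 (18.8%) and the D-box in 1 (6.25%) of the 16 eligible clock genes with an entry. Over all promoters the shares were 5.79% and 5.33%. Absence from the 4 says only that these letters are not in that window.

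**Figure D5:**
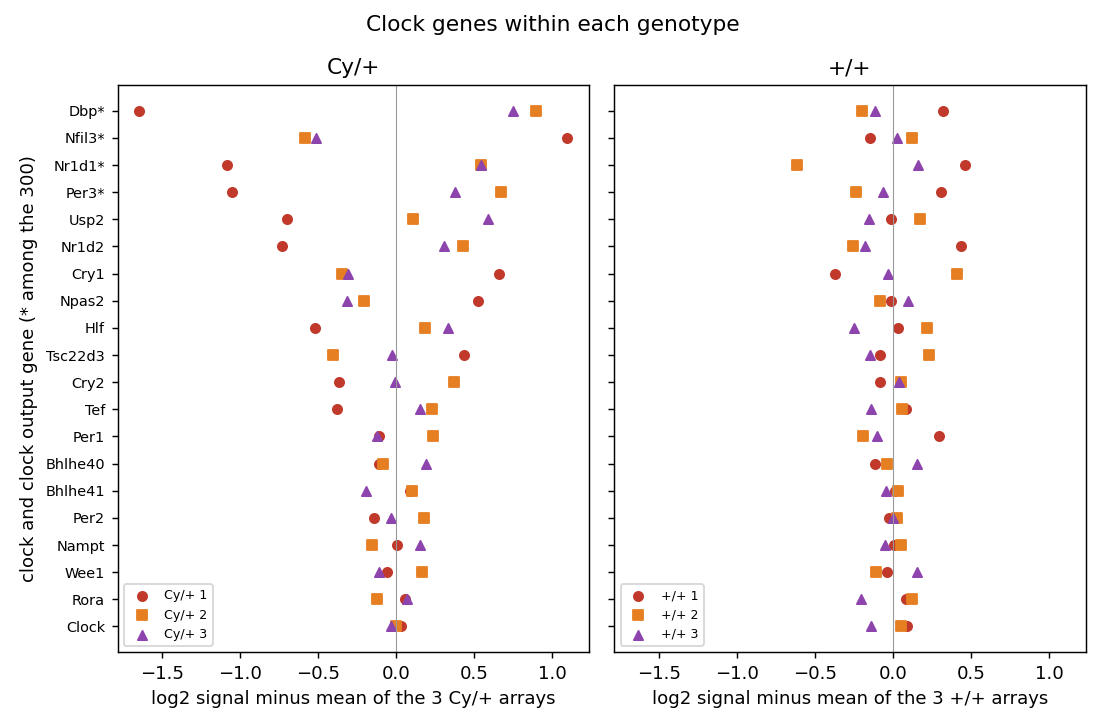
Log2 signal minus the mean of the 3 arrays of the same genotype (horizontal) for 20 clock and clock output genes (vertical, ordered by SD in Cy/+, stars for the 4 members), in Cy/+ on the left and +/+ on the right, 1 symbol per array. Cy/+ 1 (red circles) stands left of the others for Dbp, Nr1d1, Per3, Usp2, Nr1d2 and Hlf and right of them for Nfil3, Cry1 and Npas2.

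The lists of tubular injury, of immediate early genes, of hypoxia, and of vitamin D, calcium and phosphate held 2 or 3 members each. Of 39 genes of tubular injury and epithelial response, 3 (7.69%) were members, beside 2.91% of all genes. Havcr1, kidney injury molecule 1, read 5431, 1578 and 2420, and its +/+ signals spanned 1.99-fold. Krt18, a keratin of simple epithelia, read 977, 3701 and 1793, and Tff3 is given above. The 3 were highest on 3 different arrays. Of 36 immediate early genes 3 (8.33%) were members: Egr2 (972, 295 and 248) and Ccn2 (7265, 2620 and 3628) were high in Cy/+ 1, and Klf5 (155, 485 and 331) was low in it. The hypoxia list gave Ak4 (1301, 476 and 1223) and P4ha1 (1494, 573 and 618) among 21 genes (9.52%). The list of vitamin D, calcium and phosphate gave 2 members among 12 genes (16.7%). They were Slc34a1, already counted with the proximal tubule, and the calcium-sensing receptor Casr (873, 2091 and 2426).

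Of the lists with no member, some had a common order at small spans that the scaling to the hybridization controls replaced by the order of all genes. All 47 eligible genes of the respiratory chain were highest in Cy/+ 3, with a median of 0.27 on the log2 scale above the mean of the other arrays, but 37 of them were highest in Cy/+ 1 after scaling to the hybridization controls. Of 22 genes of the cytosolic ribosome 20 were highest in Cy/+ 2, and all 22 were highest in Cy/+ 1 after that scaling. Of 26 cell cycle genes 20 were highest in Cy/+ 2, and 17 were highest in Cy/+ 1 after it. Heat shock genes (16 of 20) and genes of the unfolded protein and ATF4 response (25 of 33) were highest in Cy/+ 1 as deposited. These 2 lists kept that array after the scaling, with 19 and 32 genes. It is also the array of most genes then, so nothing is read from the scaled counts. Of all genes as deposited, 41.1% were highest in Cy/+ 1, 31.3% in Cy/+ 2 and 27.6% in Cy/+ 3. The remaining lists with no member were interferon response (35 genes), antigen presentation (23), glucocorticoid-responsive genes (17), chemokines and cytokines (18), cholesterol and fatty acid synthesis (28), glycolysis (20), red cell and heme (7), B cell (2), striated muscle (2) and adrenal (1). As deposited, 20 antigen presentation and 23 interferon response genes were lowest in Cy/+ 3, beside 28.8% of all genes. After scaling to the hybridization controls these counts were 18 and 30, beside 2015 of all 9529 genes. Their median SDs were 0.218 and 0.339 in Cy/+, and 0.110 and 0.240 in +/+. No gene of neutrophils and mast cells was eligible.

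The lists covered 113 of the 277 member genes, and 164 were in none. Of the 164, Cy/+ 1 was apart and low in 50 and apart and high in 39, Cy/+ 2 apart and low in 39 and apart and high in 22, and Cy/+ 3 apart and high in 13. Among them, chosen after their values were seen, were transcription factors of the distal nephron and duct with Cy/+ 1 lowest. Tfap2b read 1233, 3110 and 3935, Irx1 read 465, 869 and 1440, and Sim2 read 538, 1234 and 1763, all highest in Cy/+ 3. Tfap2a (229, 779 and 483), Foxq1 (295, 1251 and 741) and Gata2 (272, 783 and 385) were highest in Cy/+ 2. The peptide hormone precursors Guca2a (479, 1756 and 1622) and Guca2b (298, 1353 and 1145), guanylin and uroguanylin, which promote salt loss, were low in Cy/+ 1 to a like degree. On the other side, Inhba, an activin subunit, read 610, 162 and 239, and Il1r1, the interleukin 1 receptor, read 601, 294 and 168.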

How the data were processed

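RNA of 3 Cy/+ and 3 +/+ kidney samples of male rats had been labeled with biotin by a one-cycle protocol, and each sample was hybridized to 1 oligonucleotide array. The authors analysed the images with GCOS, the submitters' notes name MAS5, and each deposited value is the intensity of 1 probe set on a linear scale. Detection calls were not used here. The exact scaling between arrays is not given in the sources used here. Precision is limited by having 3 arrays per genotype.

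Signals were taken to log2 with no pseudocount. Control probe sets (57) were left out. Of the others, 20826 had 1 gene symbol in the platform annotation, 436 had several and 9780 had none, and these were not named. Symbols were updated through Entrez gene IDs with a GRCr8 table used for names, which matched all 300 members. Anks6 was not analysed here. Eligible probe sets had a mean log2 signal of at least 7 over the Cy/+ arrays, and the 300 of highest SD were taken. Each gene stood in its list by its eligible probe set of highest mean signal, or its selected one where it was a member. There were 38 gene lists, of cell types and of functions. Some genes, such as Slc34a1, Pck1, Akr7a3 and Fmo1, stood in more than 1 list and are counted in each.

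The genes named in the text are the 10 of highest SD, the 5 of highest SD for each array and side, up to 8 members of each list by SD, and those next to the threshold. The members and lists were chosen with earlier results of these data known. Nothing was tested across samples. The selection and the naming of the array apart were tested on simulated data with known shifts. The alternatives, each applied alone, were centring on the median, quantile normalization, a pseudocount of 16, a mean log2 signal of 6 or 8, the coefficient of variation, the SD over its running median, 1 probe set per gene, removal of probe sets with suffixes _x_at, _s_at or _a_at, which may match several transcripts, and omission of each array. Scaling to the hybridization controls, and the counts of 4 gene groups under every alternative, were added after the data were seen. Python 3.11.15, numpy 2.4.6 and pandas 2.3.3 were used.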

Additional observations from a re-analysis of the deposited data

How the results depend on the processing

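Scaled to the hybridization controls, whose median log2 signal on Cy/+ 1 was 0.54 below that on Cy/+ 2 and 0.39 below that on Cy/+ 3, the median log2 signal of probe sets with 1 gene symbol became 7.94, 7.40 and 7.57 on Cy/+ 1, 2 and 3, against 7.63, 7.63 and 7.65 as deposited. Relative to those shifts the order of the probe sets within an array stays as it was. Of the 300, 208 were then kept, Cy/+ 3 lay apart in 5 in place of 33, 2 collecting duct genes were selected in place of 8, and 22 matrix genes in place of 11. With a mean log2 signal of 8 or more, 4 urothelial genes were selected in place of 8, since fewer genes passed, and with the coefficient of variation 18 matrix genes were selected in place of 11, for which the cause was not tested. Ranked on 2 arrays alone, 154 to 219 of the 300 were kept, the lowest without Cy/+ 1 (154), followed by 161 without Cy/+ 2 and 219 without Cy/+ 3. Under the alternatives that used all 3 arrays and other scalings, filters or measures, 206 to 295 were kept. Apart from the counts just given, the members with each array apart and the 4 gene groups stayed within 1.5 times the values of the report under every alternative run on them. No paired analysis was possible because the results come from no test. With 3 arrays a single array can decide a spread, and probe sets of low signal lie close to the lowest signal on the Cy/+ arrays, 11.06.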
